A study of Mus musculus with 8 samples.

Results

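Voltage-gated sodium and calcium channel genes were examined in cerebella of mice labelled Cic-L-null, a mutation of the DNA-binding transcriptional repressor Capicua (Cic), and in wild-type cerebella. The genes were chosen by symbol: all those whose symbol on the array begins with Scn, a number and a or b, or with Cacna, Cacnb or Cacng and a number, using only probe sets that carry that symbol alone. This gave 37 of the 20352 measured genes, 12 sodium channel genes and 25 genes of calcium channels or of the related Cacng family, and 992 of the 241576 probe sets of the array. Scn2a stands on the array under its older symbol Scn2a1. 1 probe set that carries an Scn, Cacna, Cacnb or Cacng symbol of this form together with another symbol is not used here. The titles number 4 Cic-L-null and 4 wild-type samples, all of cerebellum at 28 days of age on a mixed Swiss Webster (CD-1) background. Each sample was measured on an array of its own, the Affymetrix Mouse Gene 1.0 ST. The labels do not state that the replicates come from separate animals, so p-values measure the spread between these samples. The labels do not say how the Cic-L-null allele was made or in which cells it acts. Apart from genotype the labels differ only for wild-type replicate 1, whose extraction is given as Trizol with RNeasy cleanup.

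Voltage-gated sodium channels consist of a large pore-forming alpha subunit and smaller beta subunits. They start and carry the action potential. Voltage-gated calcium channels combine a pore-forming alpha1 subunit with an alpha2delta and a beta subunit, and they turn depolarisation into calcium entry that drives transmitter release, firing patterns and gene expression. The cerebellum depends on several of them: Purkinje cells fire spontaneously through resurgent sodium current and take up calcium mainly through P/Q-type channels, and mutations of Cacna1a, Cacna2d2, Cacnb4, Cacng2 or Scn8a cause ataxia in mice. The comparison asks which of these genes differ in RNA level between Cic-L-null and wild-type cerebella.

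Cic itself was lower in the mutants, with a log2 value of 7.54 ± 0.061 in Cic-L-null and 8.78 ± 0.28 in wild-type cerebella (SD, n = 4 each), so that limma gave -1.25 (SE 0.12) at an adjusted p of 0.00818. This call ended on omitting Cic-L-null replicate 2 (-1.23, adjusted p = 0.0589), without variance moderation (adjusted p = 0.157) and with the replicate number as a block (adjusted p = 0.0564). All 12 Purkinje cell markers and all 10 granule cell markers lay above the dim limit in wild-type. So did 13896 of the 20352 genes and 5 of 10 skeletal and heart muscle markers, so passing the limit does not identify the tissue. This limit, a log2 value of 6.24, is the 95th percentile of the wild-type means of 985 olfactory receptor genes, most of which the cerebellum is not known to use. Median log2 values over all probe sets lay between 7.82 and 7.88 per array. Arrays give no read depth, and 4 arrays per group limit the precision. In whole tissue, fewer cells of a type and less RNA per cell cannot be told apart. All log2 differences are Cic-L-null minus wild-type.

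1 of the 37 genes, Scn11a, differed past the threshold, and it was higher in the mutants. In all, 0.138% of the 20352 genes were called at an adjusted p under 0.05, and 0.0884% were called as higher. Among the 2757 genes with 20 or more probe sets, a group that holds 23 of the 37, 0.218% were called and 0.145% as higher. No calcium channel gene was called. In 31 of the 37 genes the difference was under 0.2 log2 units in either direction. 21 genes had a difference above 0 and 16 below, against 47% above 0 among all genes and 58.8% among those with 20 or more probe sets. The median difference was 0.019, against -0.0071 over all genes.

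In 6 of the 37 genes the 4 Cic-L-null values lay on 1 side of all 4 wild-type values. Scn11a, Scn3a, Scn3b, Cacna1g and Cacnb3 were the 5 higher ones and Cacna1i the lower one. Such a separation was seen in 5.94% of all genes, 3.02% as higher and 2.91% as lower. Among genes with 20 or more probe sets it was seen in 8.16%, 5.59% as higher and 2.58% as lower. Fewer values have to be separated when an array is left out. The count of channel genes then became 10 for Cic-L-null replicate 1 (8.8% of all genes) and 10 for Cic-L-null replicate 2 (9.31%). It became 11 for Cic-L-null replicate 3 (9.96%) and 13 for wild-type replicate 1 (13.6%). The count was 6 for Cic-L-null replicate 4 (7.72%) and 6 for wild-type replicate 4 (7.88%). For wild-type replicates 2 and 3 it was 7 (8.1%) and 7 (10.2%). Among genes with 20 or more probe sets the share was 11%, 13.5%, 13.3% and 9.72% without Cic-L-null replicates 1 to 4. Without wild-type replicates 1 to 4 that share was 21.3%, 9.83%, 12% and 9.72%. An unadjusted p under 0.05 was reached by 10 of the 37 genes, 7 higher and 3 lower, where 9.26% of all genes and 11.2% of genes with 20 or more probe sets reached it. The median size of the difference, regardless of sign, was 0.11 in the 37 genes and 0.064 over all genes. These shares are descriptions of a list that was chosen with results of these data known.

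**Figure D1:**
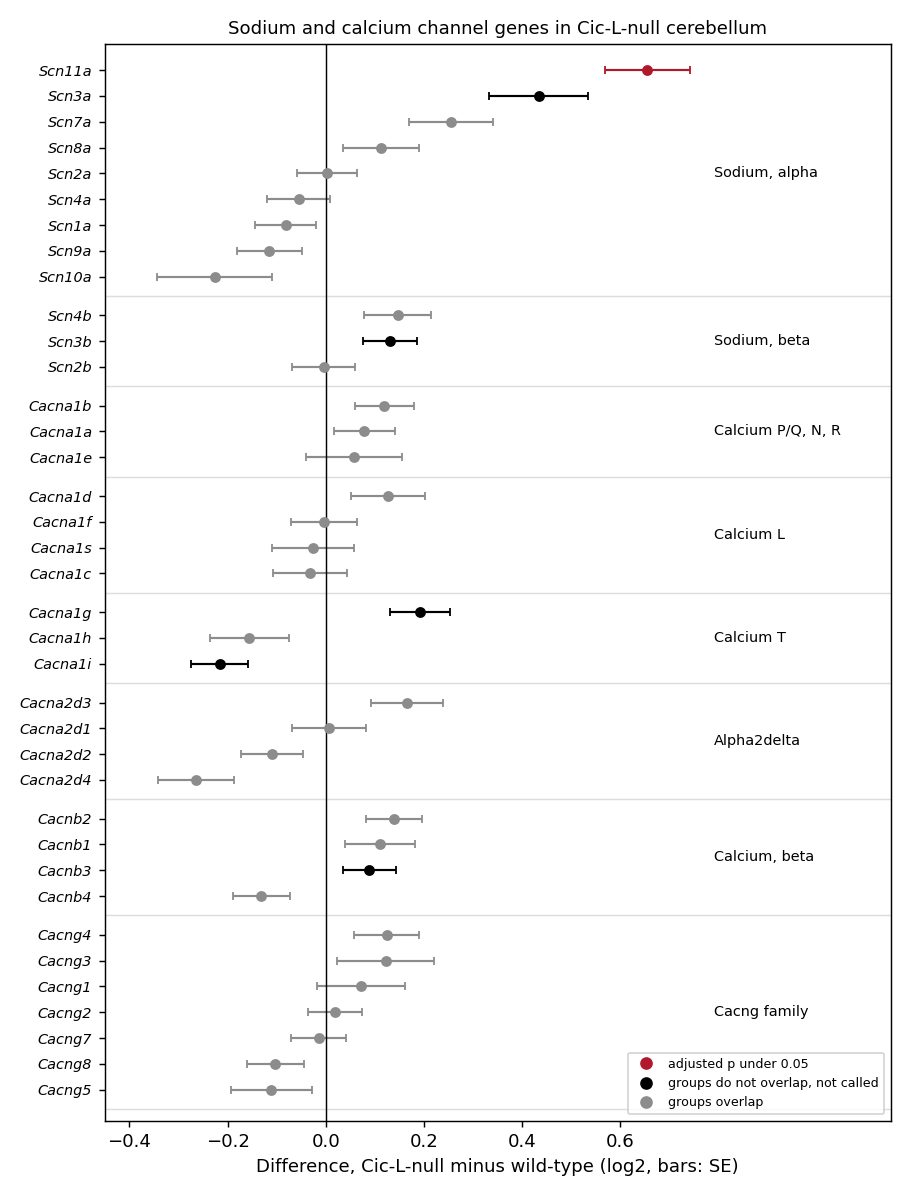
Difference of each channel gene between 4 Cic-L-null and 4 wild-type cerebella (x axis, log2 Cic-L-null minus wild-type, bars are SE), with genes grouped by subunit class down the page. Scn11a at 0.66 lies apart from the rest, Scn3a follows at 0.43, and the calcium channel genes lie between -0.26 and 0.19.

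Scn11a encodes Nav1.9, a tetrodotoxin-resistant sodium channel alpha subunit best known from small sensory neurons of dorsal root ganglia, where it carries a persistent current near the resting potential. Its log2 values were 6.79, 6.88, 6.96 and 6.58 in Cic-L-null replicates 1 to 4, against 6.24, 6.18, 6.02 and 6.15 in wild-type replicates 1 to 4. The lowest mutant value, in replicate 4, lay above the highest wild-type value, in replicate 1. Means were 6.80 ± 0.16 in Cic-L-null and 6.15 ± 0.093 in wild-type cerebella (SD, n = 4 each), so Scn11a rose by 0.66 (SE 0.087, adjusted p = 0.0258 with limma). All wild-type values lay below the dim limit of 6.24 and all Cic-L-null values above it, so the size of the difference is uncertain. With the wild-type mean set at the limit, Scn11a was 0.56 log2 units, or 1.47-fold, higher. This figure is not a floor, since the 12 probe sets above a dim limit in both groups averaged only 0.44.

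The rise of Scn11a kept its direction whichever array was left out, between 0.60 and 0.73, a direction that groups without overlap fix in advance. 5 of the 8 arrays decided its call, since it ended when any of them was left out. For Cic-L-null replicate 1 the difference became 0.66 (adjusted p = 0.0706) and for Cic-L-null replicate 2 it became 0.63 (adjusted p = 0.0806). For wild-type replicates 2, 3 and 4 it became 0.67 (adjusted p = 0.0932), 0.61 (adjusted p = 0.0848) and 0.66 (adjusted p = 0.097). The call also ended when a gene's value was its median probe set (0.62, adjusted p = 0.141), without variance moderation (adjusted p = 0.207) and with the replicate number as a block (adjusted p = 0.0819). It ended too with only probe sets above the dim limit in at least 1 group (0.52, adjusted p = 0.064). That filter kept 4 probe sets through their mutant mean alone, and the 12 above it in both groups averaged 0.44.

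Of the 28 Scn11a probe sets, each a short stretch of the transcript, 26 were higher in the mutants and 2 lower, with a median difference of 0.57. Among all probe sets 51.6% had a difference above 0. None of the 28 was called among the 241576 probe sets, where 1 in all (0.000414%) was called, and adjusted p among the 28 was 0.362 or more. An unadjusted p under 0.05 was reached by 14 of the 28 (6.8% of all probe sets), and in 6 the mutants lay above all wild-type samples (2.39% of all probe sets, and 4.3% separated in either direction). The probe sets share their RNA and their arrays, so they are not replicates of each other.

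The 12 probe sets above the probe set dim limit of 6.31 in both groups varied, with differences between -0.074 and 1.05, a median of 0.40 and 10 of the 12 higher. Probe set 10597723 had log2 values of 8.13, 7.92, 8.21 and 7.24 in Cic-L-null replicates 1 to 4, against 6.77, 6.79, 6.77 and 6.95 in wild-type replicates 1 to 4. These groups did not overlap, and the difference was 1.05 (SE 0.20). Probe set 10597721 had 8.33 ± 0.41 in Cic-L-null and 7.42 ± 0.55 in wild-type (SD, n = 4 each), a difference of 0.92 (SE 0.30) with overlap.

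In 3 of the 12 the difference was under 0.1 in size. Probe set 10597731 had 9.90 ± 0.32 in Cic-L-null and 9.94 ± 0.31 in wild-type (SD, n = 4 each). Probe set 10597720 had 9.07 ± 0.061 in Cic-L-null and 8.98 ± 0.13 in wild-type. Probe set 10597719 had 8.42 ± 0.29 in Cic-L-null and 8.49 ± 0.36 in wild-type. The other 16 probe sets lay at or below the limit in wild-type, so the size of their differences is not given. The files do not say which exon each probe set covers.

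**Figure D2:**
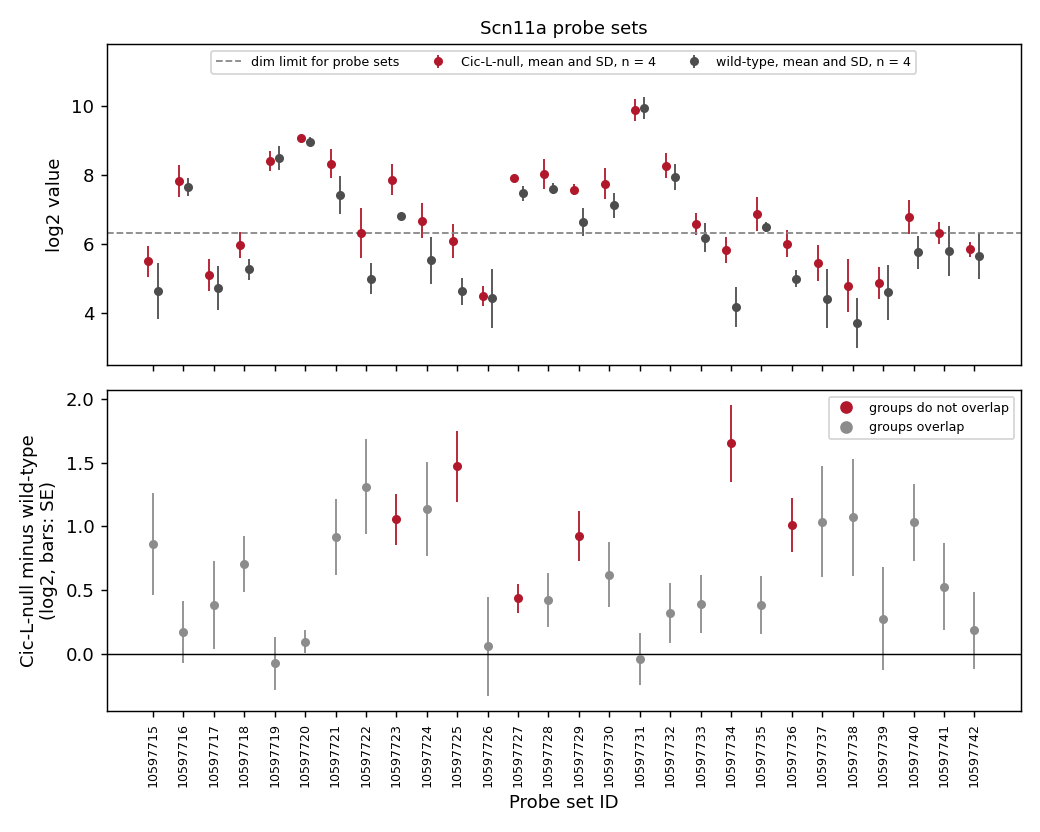
The 28 Scn11a probe sets in order of their ID (x axis). The upper panel shows the log2 mean and SD of 4 Cic-L-null and 4 wild-type replicates with the probe set dim limit of 6.31, and the lower panel the difference with its SE: 26 of 28 points lie above 0. Below the limit a difference is not a measured size.

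Since Capicua binds DNA at octamers of the form TGAATGAA, TGAATGGA, TCAATGAA and TCAATGGA, the sequence before the Scn11a start is shown and was searched for them. It comes from RefSeq on GRCm38.p6, chr9:119825457-119825706 on the minus strand, and covers the 250 bases before the annotated start, 5′ to 3′.
Scn11a: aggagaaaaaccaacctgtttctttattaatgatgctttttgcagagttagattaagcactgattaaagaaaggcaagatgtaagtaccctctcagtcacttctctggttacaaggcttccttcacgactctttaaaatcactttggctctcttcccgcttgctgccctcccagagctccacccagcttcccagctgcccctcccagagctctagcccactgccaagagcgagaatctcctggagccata
None of the 4 octamers was in this window on either strand. No match says only that these letters are not here. RefSeq start windows, from 250 bases before to 50 bases after a start, were given for 29 of the 37 genes, 40 windows in all, and 2 of the 40 held an octamer, where 3.84% of the 32851 windows of all genes held at least 1.

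Both matches were TGAATGGA, found in 1.21% of all windows, and they are shown in capitals with their flanks on the strand of the gene. In Scn10a the octamer was on the opposite strand and began 138 bases before the start (chr9:119719152-119719181, minus strand, GRCm38.p6). In Scn8a it was on the strand of the gene and began 89 bases before the start (chr15:100936171-100936200, plus strand, GRCm38.p6).
Scn10a: tccaccctcctTCCATTCAgagtgtacttt
Scn8a: ggcagaggctgTGAATGGAggttgagaacg
Neither of these genes was called, and neither match is evidence of binding.

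Genes that lie beside Scn11a on chromosome 9 were compared next. Of the 12 nearest measured genes, 6 on each side, 0 were called and in 0 the groups did not overlap, with differences between -0.23 and 0.059. Scn10a, its direct neighbour, was below the dim limit in both groups and differed by -0.23 (SE 0.12), a value between -0.43 and -0.027 over the alternatives, and Wdr48 on the other side by -0.052 (SE 0.069). Order on the chromosome was taken from GRCm38.p6.

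Markers of peripheral sensory neurons, Scn10a among them, were described beside Scn11a. Of 11 measured, 1 had a difference above 0, none was called, and the median difference was -0.061. Their mean log2 level per array ranged from 5.87 to 5.99 in Cic-L-null and from 5.83 to 6.12 in wild-type cerebella. In wild-type 4 of the 11, Prph, Mrgprd, Avil and Ret, lay above the dim limit. Ret had 7.99 ± 0.096 in Cic-L-null and 8.21 ± 0.20 in wild-type (SD, n = 4 each), a difference of -0.22 (SE 0.097). Trpv1, the capsaicin receptor, was below the limit in both groups, at 5.65 ± 0.066 in Cic-L-null and 5.82 ± 0.30 in wild-type (SD, n = 4 each), as was P2rx3, an ATP receptor of nociceptors, at 5.61 ± 0.22 in Cic-L-null and 5.66 ± 0.056 in wild-type. Their part in the Scn11a difference was not tested.

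Among the other sodium channel alpha genes, Scn3a stood next to Scn11a without passing the threshold. It encodes Nav1.3, the form that prevails in the embryonic brain and declines after birth in rodents. Its log2 values were 6.25, 6.55, 6.11 and 6.33 in Cic-L-null replicates 1 to 4, against 6.02, 5.68, 5.95 and 5.88 in wild-type replicates 1 to 4. The groups did not overlap, but Cic-L-null replicate 3 and wild-type replicate 1 were close to each other. The difference was 0.43 (SE 0.10, adjusted p = 0.167), with a mean of 6.31 ± 0.18 in Cic-L-null and 5.88 ± 0.15 in wild-type (SD, n = 4 each). Of its 26 probe sets 24 were higher in the mutants, with a median difference of 0.39, and the 11 above the probe set dim limit in both groups had a median of 0.22. Those 11 averaged 0.22. Over the alternatives the gene difference lay between 0.25 and 0.50, the lowest with probe sets above the limit in at least 1 group. Like Scn11a, it lay below the dim limit of 6.24 in wild-type and above it in Cic-L-null cerebella.

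Scn3a belongs to a cluster of 5 sodium channel genes on chromosome 2, where the differences of its neighbours varied. Scn2a, which encodes Nav1.2 of axons and axon initial segments, had 11.57 ± 0.035 in Cic-L-null and 11.57 ± 0.087 in wild-type (SD, n = 4 each), a difference of 0.0026 (SE 0.060). All 26 of its probe sets differed by less than 0.1 in either direction, between -0.051 and 0.063. Scn1a (Nav1.1, a main channel of inhibitory interneurons) differed by -0.082 (SE 0.062) and Scn9a (Nav1.7 of sensory and sympathetic neurons) by -0.11 (SE 0.066). Of the 12 measured genes nearest to Scn3a, 0 were called and in 1 the groups did not overlap, against 5.94% of all genes.

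Scn7a, also in that cluster, encodes Nax, a channel that responds to sodium concentration and is known from glia of sodium-sensing brain regions. Scn7a had log2 values of 5.10, 5.29, 5.13 and 5.40 in Cic-L-null replicates 1 to 4, against 4.82, 4.996, 5.11 and 4.98 in wild-type replicates 1 to 4. Only wild-type replicate 3 reached into the mutant range, passing Cic-L-null replicate 1. The difference was 0.26 (SE 0.085, adjusted p = 0.352), and both means lay below the dim limit. It became 0.53 with the median of its probe sets and 0.15 with those above the limit in at least 1 group.

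Scn8a encodes Nav1.6, the channel of nodes of Ranvier and of the resurgent current of Purkinje cells. Scn8a had log2 values of 10.33, 10.06, 10.31 and 10.38 in Cic-L-null replicates 1 to 4, against 10.26, 10.10, 10.16 and 10.12 in wild-type replicates 1 to 4. Cic-L-null replicate 2 was the lowest of the 8 arrays, and the other mutants lay above all wild-type samples. The difference was 0.11 (SE 0.078), with 27 of its 35 probe sets higher and a median probe set difference of 0.058. Taking the median probe set value of each array as the gene value turned the gene difference to -0.050. Scn10a (Nav1.8 of nociceptors) and Scn4a (Nav1.4 of skeletal muscle) lay below the dim limit in both groups and differed by -0.23 (SE 0.12) and -0.055 (SE 0.065).

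Of the 3 sodium channel beta genes, none was called. The beta subunits set gating and surface placement of the alpha subunits. Scn3b had log2 values of 6.54, 6.57, 6.52 and 6.47 in Cic-L-null replicates 1 to 4, against 6.39, 6.44, 6.32 and 6.43 in wild-type replicates 1 to 4. The groups were separated by a narrow gap, with a difference of 0.13 (SE 0.055, adjusted p = 0.499). Scn4b, whose cytoplasmic end is the open-channel blocker behind resurgent current, differed by 0.15 (SE 0.068), with all 7 probe sets higher. Scn2b differed by -0.0043 (SE 0.065).

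**Figure D3:**
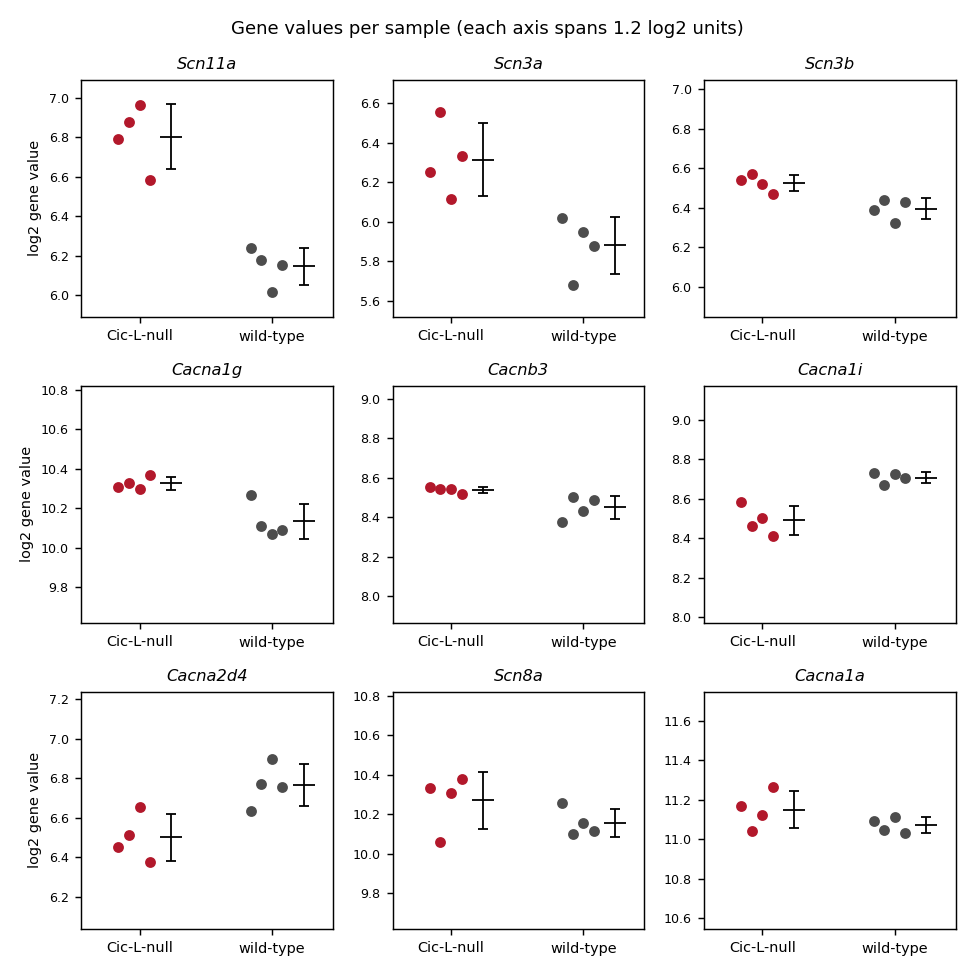
Log2 gene values of 9 channel genes in each of 4 Cic-L-null samples (left in each panel) and 4 wild-type samples (right), with mean and SD as a bar. Each y axis spans the same range of log2 units: Scn11a, Scn3a, Scn3b, Cacna1g and Cacnb3 are higher and Cacna1i is lower in every mutant, while the values of Cacna2d4, Scn8a and Cacna1a overlap.

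The 3 genes of P/Q-, N- and R-type calcium channel alpha1 subunits, which open near axon terminals and release transmitter, had small positive differences and none was called. Cacna1a encodes the P/Q-type channel, the main calcium channel of Purkinje cells. Its log2 values were 11.17, 11.04, 11.13 and 11.26 in Cic-L-null replicates 1 to 4, against 11.10, 11.05, 11.12 and 11.03 in wild-type replicates 1 to 4. The groups overlapped and differed by 0.078 (SE 0.062), with 45 of its 51 probe sets higher. Cacna1b (N-type) differed by 0.12 (SE 0.061) and Cacna1e (R-type) by 0.058 (SE 0.097).

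Of the 4 L-type alpha1 genes, none was called and 1 had a difference above 0. L-type channels open slowly and couple activity to contraction and gene expression. Cacna1c, a brain and heart form, had log2 values of 8.67, 8.38, 8.53 and 8.62 in Cic-L-null replicates 1 to 4, against 8.63, 8.59, 8.63 and 8.47 in wild-type replicates 1 to 4. The groups overlapped almost fully, with a difference of -0.032 (SE 0.075). Cacna1d, which opens at lower voltage, differed by 0.13 (SE 0.075). Cacna1s of skeletal muscle and Cacna1f of photoreceptors lay below the dim limit in both groups and differed by -0.026 (SE 0.084) and -0.0036 (SE 0.068).

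The 3 T-type alpha1 genes, whose channels open at low voltage and support rebound bursts, went in different directions and none was called. Cacna1g, the T-type gene of Purkinje and nuclear neurons, had log2 values of 10.31, 10.33, 10.30 and 10.37 in Cic-L-null replicates 1 to 4, against 10.27, 10.11, 10.07 and 10.09 in wild-type replicates 1 to 4. Mutants lay above all wild-type samples, with wild-type replicate 1 close below them. The difference was 0.19 (SE 0.061, adjusted p = 0.329), with 41 of 43 probe sets higher and a median of 0.18. The Purkinje cell markers, which do not include Cacna1g here, had 8 of 12 above 0 and a median difference of 0.049, with a mean log2 level per array of 10.11 to 10.18 in Cic-L-null and 10.01 to 10.18 in wild-type cerebella. In 3 of them, Rora, Lhx1 and Grid2ip, every mutant lay above every wild-type sample, as in 3.02% of all genes. Kcng4 differed by -0.20 (SE 0.065), and Car8, Pcp4 and Calb1 were also below 0. Their part in the Cacna1g difference was not tested.

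Cacna1i, a T-type gene best known from the thalamic reticular nucleus, was the 1 channel gene lower in every mutant. Its log2 values were 8.59, 8.46, 8.50 and 8.41 in Cic-L-null replicates 1 to 4, against 8.73, 8.67, 8.73 and 8.71 in wild-type replicates 1 to 4. The wild-type values lay close together and the mutants spread below them. The difference was -0.22 (SE 0.057, adjusted p = 0.23), and 32 of 36 probe sets were lower, 5 of them without overlap. Among all probe sets, 4.3% were separated in either direction. It stayed between -0.25 and -0.19 over the alternatives. Of the 12 measured genes nearest to it on chromosome 15, 0 were called. Cacna1h, a T-type gene of sensory neurons, differed by -0.16 (SE 0.080).

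The alpha2delta subunits sit outside the membrane and bring channels to the surface, and Cacna2d1 and Cacna2d2 encode the binding sites of gabapentin. None of the 4 genes was called. Cacna2d4, known from the retina, had log2 values of 6.46, 6.52, 6.66 and 6.38 in Cic-L-null replicates 1 to 4, against 6.64, 6.77, 6.90 and 6.76 in wild-type replicates 1 to 4. Cic-L-null replicate 3 was the only mutant to reach the wild-type range, just above wild-type replicate 1. The difference was -0.26 (SE 0.078, adjusted p = 0.283), with 27 of 37 probe sets lower. The 7 photoreceptor markers all lay below the dim limit in wild-type, with a median difference of 0.0026 and none called.

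Cacna2d3 had log2 values of 10.06, 9.995, 9.93 and 10.10 in Cic-L-null replicates 1 to 4, against 9.99, 9.81, 9.71 and 9.92 in wild-type replicates 1 to 4. Cic-L-null replicate 3 lay below wild-type replicate 1, and the rest were separated. The difference was 0.17 (SE 0.073, adjusted p = 0.52), with 36 of 38 probe sets higher. Cacna2d2, the gene mutated in ducky mice and strongly expressed in Purkinje cells, had values of 9.998, 9.81, 9.98 and 9.89 in Cic-L-null replicates 1 to 4, against 10.11, 9.99, 9.98 and 10.03 in wild-type replicates 1 to 4. These groups overlapped, with a difference of -0.11 (SE 0.063) and 38 of 44 probe sets lower. Cacna2d1 differed by 0.0071 (SE 0.075).

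The 4 calcium channel beta subunit genes, whose proteins bind alpha1 inside the cell and promote its surface expression, were not called either. Cacnb2 had log2 values of 8.36, 8.44, 8.42 and 8.45 in Cic-L-null replicates 1 to 4, against 8.36, 8.28, 8.26 and 8.20 in wild-type replicates 1 to 4. Wild-type replicate 1 met the lowest mutant, Cic-L-null replicate 1, and the others were separated, with a difference of 0.14 (SE 0.057, adjusted p = 0.471). Cacnb4, the gene mutated in lethargic mice and the main beta form of the cerebellum, had 10.87, 10.73, 10.81 and 10.74 in Cic-L-null replicates 1 to 4, against 10.95, 10.86, 10.89 and 10.97 in wild-type replicates 1 to 4. Cic-L-null replicate 1 lay between the wild-type values, and the other mutants were below all of them. The difference was -0.13 (SE 0.058, adjusted p = 0.527), with 15 of 16 probe sets lower, 6 of them without overlap. Separation in either direction was seen in 4.3% of all probe sets.

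Cacnb3, a brain form, had log2 values of 8.55, 8.54, 8.54 and 8.52 in Cic-L-null replicates 1 to 4, against 8.38, 8.50, 8.43 and 8.49 in wild-type replicates 1 to 4. The mutants were nearly alike and lay above all wild-type samples, with a difference of 0.089 (SE 0.054, adjusted p = 0.686). Of its 15 probe sets 8 were higher and 7 lower. Probe set 10426612 differed most, at 6.307 ± 0.15 in Cic-L-null and 5.01 ± 0.55 in wild-type (SD, n = 4 each). Both means lay below the probe set dim limit of 6.311, so the size of its difference is uncertain. Of the 14 probe sets above that limit in both groups, 7 were higher, with a median difference of 0.039. Taking the median of the 15 probe sets gave a gene difference of 0.13. Keeping those above the limit in at least 1 group, which leaves out probe set 10426612, gave 0.0030. Cacnb1, whose protein serves skeletal muscle channels as well as neurons, differed by 0.11 (SE 0.071).

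Of the 7 measured genes of the Cacng family, none was called and in none were the groups separated, although all lay above the dim limit in both groups. Several of these proteins are partners of AMPA receptors rather than calcium channel subunits. Cacng2 encodes stargazin, which brings AMPA receptors to the synapses of granule cells, and it differed by 0.019 (SE 0.055). Cacng7, a type II partner of AMPA receptors in the cerebellum, differed by -0.014 (SE 0.056) on 2 probe sets. Cacng3, Cacng4 and Cacng8, partners of the same type as stargazin, differed by 0.12 (SE 0.099), 0.12 (SE 0.067) and -0.10 (SE 0.057). Cacng3, Cacng7 and Cacng8 lie on the chromosome of Cic, none of them within 20 Mb of it.

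Cacng5, another type II partner, had log2 values of 8.44, 8.46, 8.42 and 8.34 in Cic-L-null replicates 1 to 4, against 8.46, 8.43, 8.44 and 8.77 in wild-type replicates 1 to 4. Wild-type replicate 4 stood above the rest, which lay close together in both groups. The difference was -0.11 (SE 0.083), and it shrank to -0.028 without wild-type replicate 4. Cacng1, a subunit of the skeletal muscle calcium channel, differed by 0.072 (SE 0.090) on 4 probe sets.

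The level of the channel genes against the dim limit differed by class. In Cic-L-null cerebella 31 of the 37 genes lay above it and in wild-type 29, and the 2 genes that differed in this were Scn11a and Scn3a. Of all 20352 genes, 13859 lay above it in Cic-L-null and 13896 in wild-type. At a higher limit of 6.996, the 99th percentile of the olfactory receptor genes, 25 lay above it in Cic-L-null and 25 in wild-type. Scn11a, Scn3a, Scn3b, Cacna1h, Cacna2d4 and Cacng1 were then below it in both groups. At the limit of 6.24, 5 of the 9 sodium channel alpha genes were above it in Cic-L-null and 3 of 9 in wild-type. The 3 above it in wild-type were Scn1a, Scn2a and Scn8a, the forms known from the adult brain. At the limit of 6.24, all 3 sodium beta genes, all 3 P/Q-, N- and R-type genes, all 3 T-type genes, all 4 alpha2delta genes, all 4 calcium beta genes and all 7 Cacng genes were above it in both groups, and 2 of the 4 L-type genes. Levels of different genes were not ranked, since their probe sets respond differently.

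Partners of the channels were described with lists drawn up by known role, with earlier results of these data known. Of 13 genes of the axon initial segment and node, where sodium channels cluster, 9 had a difference above 0 and none was called. Cntnap2, a cell adhesion gene of this list, was higher in every mutant, with 9.31 ± 0.090 in Cic-L-null and 9.05 ± 0.097 in wild-type (SD, n = 4 each), a difference of 0.26 (SE 0.070, adjusted p = 0.237). Separation as higher was seen in 1 of the 13 and in 3.02% of all genes. Sptbn4, the spectrin of the initial segment, differed by 0.12 (SE 0.069).

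Of 25 measured channel regulators, 11 had a difference above 0 and none was called. Calm3, a calmodulin gene whose protein binds both channel families, came close to the threshold, with 11.56 ± 0.053 in Cic-L-null and 11.93 ± 0.077 in wild-type (SD, n = 4 each), a difference of -0.38 (SE 0.061, adjusted p = 0.0539). Unc79, a partner of the sodium leak channel, differed by 0.21 (SE 0.065). Of 16 genes of intracellular calcium release and buffering, 7 had a difference above 0 and none was called. The receptor genes Itpr3 and Ryr3, which release calcium from the endoplasmic reticulum, differed by -0.35 (SE 0.080, adjusted p = 0.152) and -0.38 (SE 0.10, adjusted p = 0.246). In these 2 of the 16 genes every mutant lay below every wild-type sample. The same held for 3 of the 25 regulators, Fgf12, Rem2 and Calm3. Such a separation as lower was seen in 2.91% of all genes.

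Markers of cell types that express these channels, or surround the cells that do, moved beside them as follows. Granule cell markers had 7 of 10 above 0 (median 0.098), molecular layer interneuron markers 6 of 10 (median 0.020) and oligodendrocyte precursor markers 5 of 9 (median 0.015). Mature oligodendrocyte markers had 0 of 11 above 0 (median -0.14), with a mean log2 level per array of 9.83 to 9.95 in Cic-L-null and 9.98 to 10.12 in wild-type cerebella. Markers of astrocytes and Bergmann glia had 1 of 9 above 0 (median -0.14), and Fabp7 of that list fell by 1.17 (SE 0.14, adjusted p = 0.018). Vascular markers had 5 of 10 above 0 (median 0.018), skeletal and heart muscle markers 3 of 10 (median -0.015) and immediate early genes 4 of 8 (median -0.015). No other gene of these lists was called. Their part in the differences of the channel genes was not tested.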

How the data were processed

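RNA from 4 Cic-L-null and 4 wild-type cerebella was measured on 1 array each. The deposited values are log2 expression per probe set, made by the authors with RMA. Per the submitters' processing notes, the tool was Affymetrix Power Tools. Neither its version nor a genome build is given in the sources used here. Samples were grouped by their labels. Of 241576 probe sets, 212097 carry 1 gene symbol in the platform annotation, 4475 several and 25004 none. Symbols were brought up to date with RefSeq (GRCm38.p6): of 20416, 17621 were current, 2742 were replaced and 53 were kept. A gene's value is the mean of its probe sets with that symbol alone. Cic-L-null was compared with wild-type by limma 3.58.1 in R 4.3.3 (lmFit, eBayes) over all 20352 genes, with Benjamini-Hochberg adjustment and a threshold of 0.05, and likewise over all probe sets. The procedure was tested on simulated data. Every channel gene is named; values per sample are given for the 10 smallest p-values, for genes whose groups do not overlap and for the gene with the most probe sets in a class. The channel genes and all lists were chosen with earlier results of these data known. Alternatives covered the gene summary, filters on dim signal, array scaling, the variance model, blocking by replicate number, Y-linked genes as a covariate and leaving out each array.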

Additional observations from a re-analysis of the deposited data

Results flagged for a closer look

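In 3 of the 76 groups of 4 samples examined (the 37 channel genes and Cic, in both genotypes), 1 sample lay far from the others by Dixon's test at its 95% level. Chance flags about 1 in 20 groups. Cacna1b was at 9.21 in Cic-L-null replicate 2, with the other mutants between 9.28 and 9.29. Cacng5 was at 8.77 in wild-type replicate 4, with the other wild-type samples between 8.43 and 8.46. Cacng7 was at 10.89 in Cic-L-null replicate 1, with the other mutants all at 10.95. The 3 values came from 3 different arrays.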

How the results depend on the processing

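Scn11a stayed higher under all 19 alternatives, between 0.52 and 0.73, with adjusted p between 0.00727 and 0.207, and was called in 10 of them. These 10 include the fit to genes above the 95th percentile of olfactory receptor genes (adjusted p = 0.0128 with limma). Scn11a passed that filter, a mean of 6.21 over all arrays, only through its mutant values, since its wild-type mean was 6.15. No channel gene was called, so the count was 0, with the median of probe sets (Scn11a 0.62, adjusted p = 0.141), with only probe sets above the dim limit (0.52, adjusted p = 0.064), without variance moderation (0.66, adjusted p = 0.207) and with the replicate block (0.66, adjusted p = 0.0819). Leaving out single arrays gave 0 to 1 called genes, an Scn11a difference of 0.60 to 0.73, a Cic difference of -1.32 to -1.11 and 6 to 13 channel genes whose groups did not overlap, where 7.72% to 13.6% of all genes did not. Cic, at -1.25, was not called without moderation (adjusted p = 0.157) or with the replicate block (adjusted p = 0.0564). Of the Scn11a probe sets, 14 of the 16 above the dim limit in either group were higher, but 4 of these passed through their mutant mean alone; of the 12 above it in both groups, 10 were higher. The total of called genes was 130 with a trended and robust variance, 69 with genes above the 95th percentile of olfactory receptor genes, 54 with array weights, 2 with the median of probe sets and 0 without moderation or with the block, against 28. Omitting Cic-L-null replicate 2 left 0 called genes and omitting Cic-L-null replicate 1 left 7. Omitting Cic-L-null replicate 4, wild-type replicate 2 or wild-type replicate 3 left 3 each, and omitting wild-type replicate 4 left 5. The total rose to 37 without wild-type replicate 1 and to 36 without Cic-L-null replicate 3.

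Whether the replicate numbers pair the samples is not settled by these values. Same-numbered samples correlated in their deviations at 0.219, 0.000325, 0.207 and 0.0262, and 2 of the 4 mutants matched their own number best.

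Of the 36 other channel genes, 26 kept their sign under every alternative and none was called under any. The other 10, with differences between -0.032 (Cacna1c) and 0.11 (Scn8a), changed sign in 37 of 677 values. With the median of probe sets these were Cacna1f 0.084, Cacna2d1 -0.0048, Scn2a -0.026 and Scn8a -0.050. With only probe sets above the dim limit they were Cacna1f 0.043, Cacna2d1 -0.0078 and Cacng1 -0.0081. With quantile normalisation they were Cacna1f 0.021, Cacna2d1 -0.0054, Scn2a -0.0042 and Scn2b 0.0051. Array weights gave Scn2b 0.027. The Y-linked covariate gave Cacna2d1 -0.0050, Cacng2 -0.00021 and Scn2a -0.012. Leaving out single arrays gave ranges of -0.050 to 0.022 for Cacna1f, -0.042 to 0.055 for Cacna2d1, -0.023 to 0.044 for Scn2a, -0.043 to 0.031 for Scn2b, -0.00067 to 0.040 for Cacng2, -0.090 to 0.020 for Cacna1s, -0.034 to 0.015 for Cacng7 and -0.071 to 0.025 for Cacna1c. The cause of these changes was not tested. Dim signal limits what can be said of the 8 channel genes at or below the limit in wild-type.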
